A study of Mus musculus with 14 samples.

Results

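Collagen chains were followed in mouse ventricle after myocardial infarction (MI). A member was any gene whose symbol is Col, a number, the letter a and a number. These symbols gave 43 genes with 63 probes, of 20614 named genes on the array. Of the 43 genes, 32 had a probe that could be tested, and 11 were too dim. Samples were 14 Agilent 1-colour arrays of male C57BL/6 mice aged 8 weeks. The groups with infarction were MI 14 days (n = 5) and MI 3 days (n = 5), in which the left anterior descending coronary artery had been tied permanently, and border zone of the ventricle was taken 14 or 3 days later. In the sham group (n = 4) the operation was done without the ligation. When the sham hearts were taken is not stated, the design speaks of 5 sham mice, and each array held 1 sample. Nothing further says how independent the samples were, so p-values measure the spread between these samples.

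Collagens are matrix proteins built from 3 chains wound into a triple helix. Fibrillar collagens such as types I and III form the tension-bearing cables of scar and of the network between heart muscle cells. Type IV forms the sheet of the basement membrane around myocytes and vessels, and type VI forms beaded filaments beside it. FACIT collagens (fibril-associated collagens with interrupted triple helices) sit on the surface of fibrils, type VIII forms a short-chain network, and multiplexins (types XV and XVIII) lie at basement membranes. Since a helix needs its chains in set combinations, the genes of partner chains are described together below.

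Levels are log2 of the Cy3 signal minus the array's 75th percentile, so a level compares arrays for the same probe and not different genes. A change is limma's log2 fold change ± its SE, fitted over the 3 groups (n = 5, 5 and 4), with p adjusted by Benjamini-Hochberg over all 32261 tested probes and called under 0.05. The 75th percentile lay between 188.6 and 443 intensity units. Probes well above background made up 54.8% to 66.1% on the 10 arrays with scanner output (4 MI 14 days, 2 MI 3 days, 4 sham). Correlations between arrays of 1 group were 0.974 to 0.986 for MI 14 days, 0.979 to 0.984 for MI 3 days and 0.984 to 0.987 for sham. All 7 cardiomyocyte markers were well above background in every group.

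At 14 days, 24 of the 32 tested collagen genes were higher than in sham, 1 (Col9a1) was lower and 7 did not pass the test. The 24 include Col2a1 and Col22a1, which entered the tests only through their MI 14 days signal. They also include Col11a1, which entered only through its signal in the MI groups. Over all 14870 tested genes 15.9% were called higher and 24.2% lower (40.1% called). The median collagen change was 1.48, against -0.08 over all genes, and stayed at 1.48 with genes below background in sham at their lower bound. A 2-fold or larger fitted rise was called in 19 collagen genes, and in 4.67% of all genes. Of all calls at 14 days 39.6% were higher, or 52.6% with arrays centred on the tested probes alone. With either centring 24 collagen genes were called higher. The fall of Col9a1 was not called with the second centring.

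At 3 days, 20 of the 32 were higher than in sham, 6 were lower and 6 did not pass. The 20 include Col2a1, which was below background in both groups, and Col11a1, which entered the tests only through its signal in the MI groups. Over all genes 29.8% were called higher and 40.5% lower (70.2% called), so a call as such was common at this time. The median fitted collagen change was 1.55, against -0.15 over all genes, and 1.12 over 31 genes with those below background in 1 group at their bound and Col2a1 left out. Fitted rises of 2-fold or more were called in 17 collagen genes and in 13.9% of all genes. Of the 17, Col2a1 has no measured fold and the bound of Col11a1 is under 2-fold, which leaves 15. The 6 lower genes were Col4a3, Col4a4, Col4a6, Col9a1, Col20a1 and Col22a1, which encode basement membrane and FACIT chains. Both comparisons with sham share the sham arrays, so their calls are not independent of each other.

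Between the 2 times, 14 of the 32 were higher at 14 days than at 3 days, 7 were lower and 11 did not pass. The 14 include Col2a1 and Col22a1, which entered the tests only through their MI 14 days signal. Over all genes 33.6% were higher and 26.9% lower (60.5% called). The median collagen change was 0.28, against 0.08 over all genes. The 7 lower genes were Col4a1, Col5a1, Col5a3, Col6a3, Col15a1, Col18a1 and Col27a1. Among the 14 higher genes were 4 of the 6 FACIT genes and 4 of the 6 type IV genes.

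**Figure D1:**
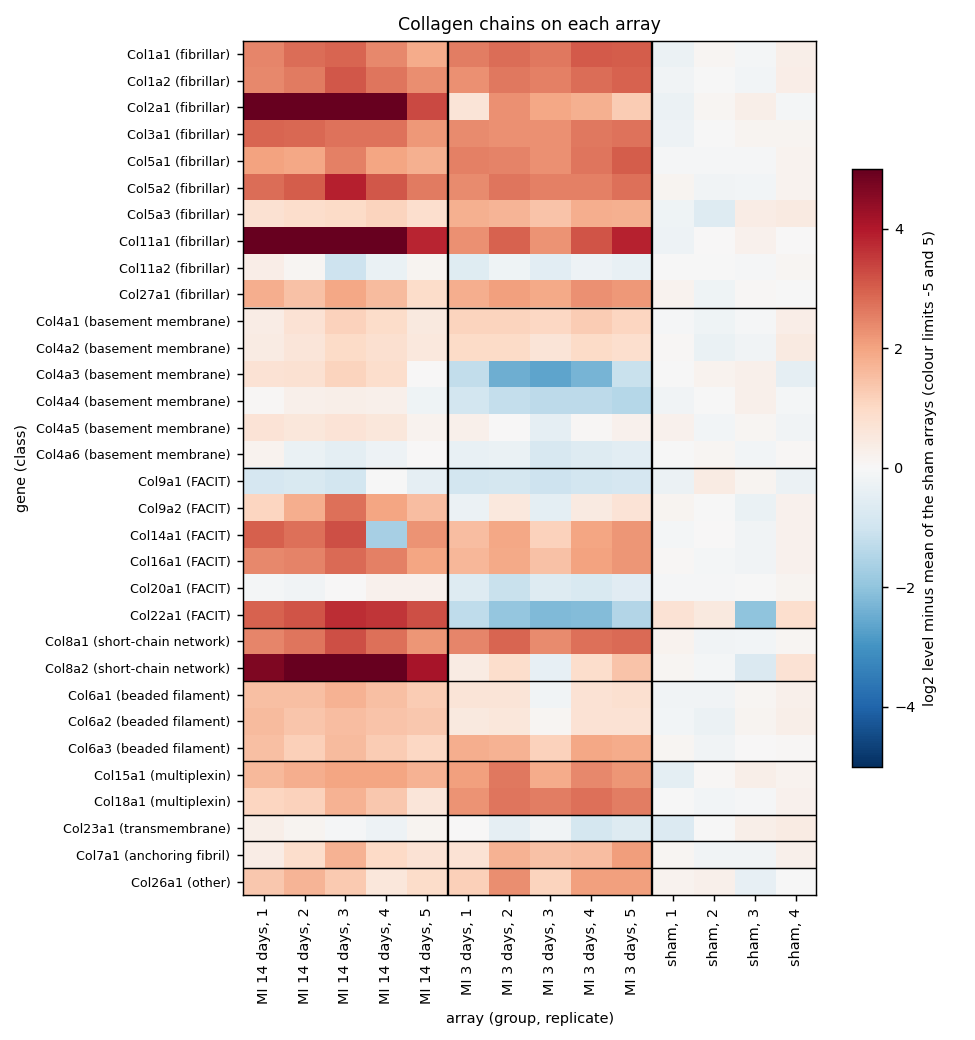
Level of each of the 32 tested collagen genes (rows, by class) on each of the 14 arrays (columns), as the log2 level minus the mean of the sham arrays, with colours limited to -5 and 5. Fibrillar rows except Col11a2 lie above the sham mean on all MI arrays of both times, with Col2a1 below background at MI 3 days. Col8a2 and Col22a1 are far higher on the MI 14 days arrays than on the MI 3 days arrays.

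Overlap between single arrays was counted too. For 22 collagen genes, all higher, no MI 14 days array overlapped a sham array. Over all genes this held for 35.2%, with 13.3% higher and 21.9% lower. For MI 3 days against sham it was 25 genes, 19 higher and 6 lower, and 63.2% of all genes, 27.1% higher and 36.1% lower. Between MI 14 days and MI 3 days it was 11 genes, 9 higher and 2 lower, and 46.1% of all genes, 23.8% higher and 22.3% lower. The counts include genes that entered the tests only through MI signal, so their separation is no independent support. These are Col2a1, Col11a1 and Col22a1 at 14 days, Col2a1 and Col11a1 at 3 days, and Col2a1 and Col22a1 between the times. At 3 days Col2a1 was below background in both groups.

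Markers of other cell types were measured in the same groups. Over all genes 29.8% were called higher and 40.5% lower at 3 days, and 15.9% higher and 24.2% lower at 14 days. From 3 to 14 days these shares were 33.6% and 26.9%. Myofibroblast markers (Acta2, Tagln, Postn and Cthrc1) summed to 71.1 to 123 times the array's 75th percentile at MI 14 days, 119 to 203 at MI 3 days and 43.1 to 57.5 in sham. All 4 were called higher at 3 days and 3 at 14 days. At 14 days Acta2 did not pass (-0.28 ± 0.17, adjusted p = 0.238), and the changes were 0.57 for Tagln, 3.45 for Postn and 4.26 for Cthrc1. From 3 to 14 days Acta2 and Tagln were lower, and Postn and Cthrc1 did not pass. The 7 resident fibroblast markers summed to 725 to 802 at MI 14 days, 249 to 292 at MI 3 days and 481 to 499 in sham. Of them 6 were called higher at 14 days. At 3 days 2 were higher (Pdgfra and Tcf21), 2 were lower (Dcn, -0.56 ± 0.08, and Gsn, -2.36 ± 0.1), and Lum, Dpt and Ddr2 did not pass. A sum is carried by its brightest probes, here Dcn and Gsn, so the lower sum at 3 days does not describe the list as a whole. All 4 measured macrophage markers were higher at 3 days and 2 at 14 days, and their sums were 35.5 to 52.5 at MI 14 days, 58.2 to 100.0 at MI 3 days and 30.2 to 39.0 in sham. All 7 cardiomyocyte markers were lower at 3 days and 3 at 14 days, with sums of 2992 to 4497 at MI 14 days, 1815 to 2083 at MI 3 days and 3387 to 4104 in sham. Of 5 pericyte and smooth muscle markers, 4 were lower and 1 higher at 3 days and none passed at 14 days, with sums of 40.4 to 46.9 at MI 14 days, 18.7 to 28.7 at MI 3 days and 39.4 to 53.8 in sham. All 3 cell cycle markers were higher at 3 days and none passed at 14 days, with sums of 1.19 to 3.08 at MI 14 days, 14.9 to 19.7 at MI 3 days and 0.617 to 1.71 in sham. Of 4 mesothelium markers 3 were lower at 3 days and none passed at 14 days, with sums of 4.97 to 15.1 at MI 14 days, 1.92 to 4.75 at MI 3 days and 6.71 to 9.08 in sham. Of 5 endothelium markers 1 was higher and 1 lower at 3 days, and 1 was lower at 14 days. Their sums were 29.2 to 33.2 at MI 14 days, 28.0 to 34.8 at MI 3 days and 31.3 to 35.2 in sham. Of 3 Schwann cell markers 2 were lower at 3 days and 1 at 14 days. These summed to 1.13 to 1.96 at MI 14 days, 0.986 to 1.42 at MI 3 days and 1.67 to 2.3 in sham. The part of these cell types in the collagen changes was not tested. In whole tissue, more cells of a type and more RNA per cell cannot be told apart.

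Fibrillar chains were the largest class, and all tested but Col11a2 were called higher in both MI groups. The calls include Col2a1, which entered the tests only through MI 14 days and was below background in both groups at 3 days against sham. They also include Col11a1, which entered only through the MI groups. Of 10 tested, 9 were called higher than in sham at 14 days (median 2.55) and 9 at 3 days (median 2.51, or 2.45 with Col11a1 at its bound and Col2a1 left out). Over all genes 15.9% were higher at 14 days and 29.8% at 3 days. Col11a2, the α2 chain of type XI, did not pass, with changes of -0.16 ± 0.22 at 14 days and -0.40 ± 0.22 at 3 days. At 3 days Col11a2 passed as lower when those 2 groups were fitted alone (adjusted p = 0.00466), and without MI 14 days replicate 3 it was higher at 14 days than at 3 days (0.46, adjusted p = 0.00737). Between the times 3 fibrillar genes were higher at 14 days, 3 were lower and 4 did not pass.

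Col1a1 encodes the α1 chain of type I collagen, the main scar collagen. Its levels were 7.07, 7.41, 7.54, 7.04 and 6.49 on the MI 14 days arrays, 7.18, 7.43, 7.24, 7.68 and 7.63 on the MI 3 days arrays and 4.33, 4.72, 4.52 and 4.92 on the sham arrays. Every MI array of either time lay above every sham array. The change against sham was 2.49 ± 0.19 (adjusted p = 3.43e-06) at 14 days and 2.81 ± 0.19 (adjusted p = 4.19e-08) at 3 days, or 5.6-fold higher at 14 days and 7.01-fold higher at 3 days. Between the times it was -0.32 ± 0.18 (adjusted p = 0.15), and the arrays of the 2 times overlapped. With normexp on the 10 scanner arrays that difference passed at -0.63 (adjusted p = 0.0463).

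Col1a2, the partner α2 chain, read 8.42, 8.60, 9.13, 8.71 and 8.36 on the MI 14 days arrays, 8.31, 8.65, 8.53, 8.80 and 8.98 on the MI 3 days arrays and 5.84, 6.01, 5.89 and 6.36 on the sham arrays. It was 6.16-fold higher at 14 days (2.62 ± 0.17) and 6.2-fold higher at 3 days (2.63 ± 0.17), with no overlap with sham. The difference between the times was -0.01 ± 0.16 (adjusted p = 0.969).

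Col3a1 forms type III collagen, the finer fibril that accompanies type I in early scar. It read 7.85, 7.81, 7.63, 7.63 and 7.10 on the MI 14 days arrays, 7.29, 7.23, 7.20, 7.55 and 7.65 on the MI 3 days arrays and 4.67, 4.91, 5.08 and 5.08 on the sham arrays. Its rise was 2.67 ± 0.15 at 14 days and 2.45 ± 0.15 at 3 days, again with no overlap with sham. At 0.22 ± 0.15 the times did not differ past the threshold (adjusted p = 0.219), but without MI 14 days replicate 5 the difference passed at 0.34 (adjusted p = 0.0297). On the 10 scanner arrays it read -0.05.

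Promoter sequence is shown for Col1a2 and Col3a1, both called higher at both times, and for Col8a1 and Col8a2, of which Col8a2 was not called at 3 days. Each run is the 120 bases before the RefSeq gene start on GRCm38.p6, 5′ to 3′ on the gene's strand. Capitals mark the CCAAT box, the TATA box (searched as TATAAA) or the GC box (searched as GGGCGG) on either strand. The windows are chr6:4505498-4505617 (plus strand) for Col1a2, chr1:45311418-45311537 (plus) for Col3a1, chr16:57754738-57754857 (minus) for Col8a1 and chr4:126286674-126286793 (plus) for Col8a2.
Col1a2: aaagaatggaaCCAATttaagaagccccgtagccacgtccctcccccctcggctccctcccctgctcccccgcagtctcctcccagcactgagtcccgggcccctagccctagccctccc
Col3a1: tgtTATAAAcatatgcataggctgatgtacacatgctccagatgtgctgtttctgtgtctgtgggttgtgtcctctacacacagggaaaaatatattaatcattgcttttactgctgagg
Col8a1: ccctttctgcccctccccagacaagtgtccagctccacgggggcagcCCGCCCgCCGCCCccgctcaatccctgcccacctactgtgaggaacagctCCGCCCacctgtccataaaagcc
Col8a2: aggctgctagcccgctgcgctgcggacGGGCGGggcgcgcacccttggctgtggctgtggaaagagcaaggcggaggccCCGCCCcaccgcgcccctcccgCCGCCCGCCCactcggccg
Col1a2 has CCAAT starting 109 bases before the gene start and no GGGCGG in these 120 bases. Col3a1 has TATAAA 117 bases before its start. Col8a1 has GGGCGG at 73, 66 and 23 bases before its start, and Col8a2 at 93, 41, 19 and 15, where the matches at 19 and 15 share bases. Over the 250 bases before the start, GGGCGG occurred in 57.9% of 38 collagen windows (35 genes) and in 32.7% of all 32851 windows. Some genes have more than 1 window, and windows of Col4a1 and Col4a2 share 78 bases, so the windows are not all independent. CCAAT occurred in 34.2% of the collagen windows and 33.8% of all windows, and TATAAA in 13.2% and 12.4%. A match is a run of letters, and no factor binding was measured.

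Type V collagen nucleates type I fibrils, and its 3 chains were all higher in both MI groups. Col5a1 (α1) changed by 2.04 ± 0.16 at 14 days and 2.59 ± 0.16 at 3 days. Col5a2 (α2) changed by 3.07 ± 0.20 at 14 days and 2.57 ± 0.20 at 3 days. Col5a3 (α3) changed by 0.91 ± 0.19 at 14 days and 1.70 ± 0.19 at 3 days. From 3 to 14 days Col5a2 was higher (0.50 ± 0.19, adjusted p = 0.0368), whereas Col5a1 (-0.54 ± 0.15, adjusted p = 0.00725) and Col5a3 (-0.79 ± 0.18, adjusted p = 0.00208) were lower. The Col5a2 call ended in 11 of 20 alternatives, 5 of them without replicate 1, 3 or 4 of MI 3 days or replicate 2 or 4 of MI 14 days (0.45 to 0.51, adjusted p = 0.0517 to 0.0775). The calls of Col5a1 and Col5a3 ended in none of the alternatives run. Col27a1, a fibrillar chain best known from cartilage, was 1.55 ± 0.18 at 14 days and 2.04 ± 0.18 at 3 days, and 14 days against 3 days gave -0.49 ± 0.17 (adjusted p = 0.0225). That last call ended in 4 of 20 alternatives, which were the fit without replicate 4 of MI 3 days (-0.43, adjusted p = 0.0574), the scanner signal (-0.66, adjusted p = 0.0645), normexp (-0.35, adjusted p = 0.0614) and slide as a block (-0.61, adjusted p = 0.166).

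Col2a1 encodes type II collagen, the main fibril of cartilage. It read -0.82, 0.03, 0.69, -1.25 and -3.10 on the MI 14 days arrays, -5.74, -4.10, -4.47, -4.62 and -5.13 on the MI 3 days arrays and -6.69, -6.29, -6.11 and -6.49 on the sham arrays. It was well above background on all 4 scanner arrays at 14 days and on none of 2 at 3 days or 4 in sham. Col2a1 thus entered the tests only through MI 14 days, where it was high, so its p-values are no independent support. At 14 days it was at least 11.2-fold higher than in sham (adjusted p = 2.92e-05) and at least 13.5-fold higher than at 3 days (adjusted p = 4.42e-05). Both groups were below background at 3 days against sham, so no fold is given there, and that call (adjusted p = 0.0279) ended in 9 of 18 alternatives. They include the fits without sham replicate 1 or 4 or MI 3 days replicate 2, 3 or 4 (adjusted p = 0.0504 to 0.0647).

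Col11a1, the α1 chain of type XI collagen, which sits inside cartilage fibrils, read -0.88, -0.71, -0.78, -1.49 and -2.78 on the MI 14 days arrays, -4.29, -3.65, -4.32, -3.42 and -2.73 on the MI 3 days arrays and -6.82, -6.57, -6.37 and -6.58 on the sham arrays. No sham array was well above background, while all scanner arrays of both MI groups were. Col11a1 thus entered the tests only through the MI groups. It was at least 8.28-fold higher at 14 days (adjusted p = 3.37e-06) and at least 1.62-fold higher at 3 days (adjusted p = 2.51e-05). Against 3 days, 14 days was higher by 2.35 ± 0.38 (adjusted p = 1.53e-04), with replicate 5 of MI 14 days at -2.78 inside the range of MI 3 days. With normexp background correction the 3 days call against sham ended at 0.53 (adjusted p = 0.0658), and with slide as a block the call between the times ended at 1.53 (adjusted p = 0.0903).

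Cartilage genes were also measured. Sox9, the chondrocyte transcription factor, was 2.24 ± 0.31 (adjusted p = 2.00e-04) at 14 days and 1.73 ± 0.31 (adjusted p = 2.35e-04) at 3 days. Acan (aggrecan) was 2.12 ± 0.22 (adjusted p = 2.57e-05) at 14 days and 0.13 ± 0.22 (adjusted p = 0.615) at 3 days. Chad (chondroadherin) was 0.42 ± 0.19 (adjusted p = 0.1) at 14 days and -1.22 ± 0.19 (adjusted p = 6.17e-05) at 3 days, and Matn3 and Hapln1 were too dim to test. The sum of the 3 measured markers was 1.5 to 2.37 at MI 14 days, 0.512 to 1.15 at MI 3 days and 0.613 to 0.733 in sham, in units of the array's 75th percentile. Their part in the rise of Col2a1 and Col11a1 was not tested.

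**Figure D2:**
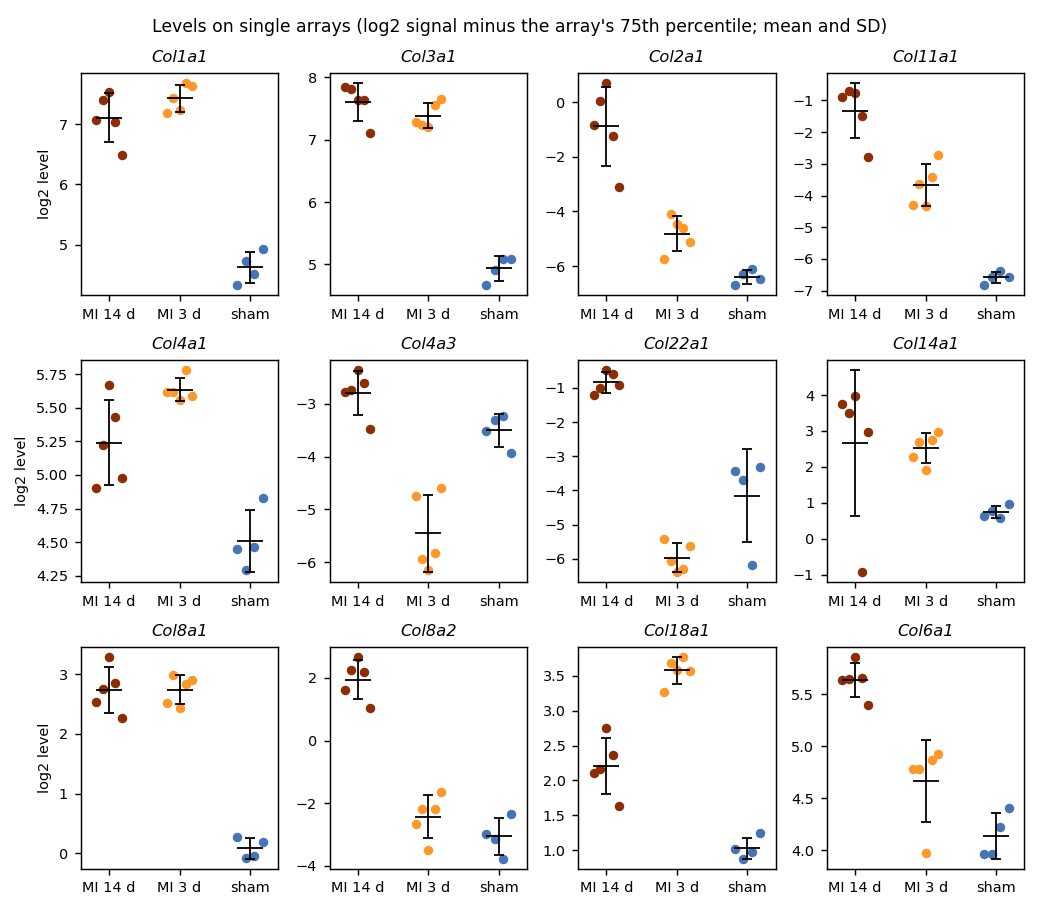
Log2 level (signal minus the array's 75th percentile) of 12 collagen genes on each array, with MI 14 days, MI 3 days and sham from left to right, points for arrays, and the mean and SD in black. Col1a1, Col3a1 and Col8a1 are high at both times, Col2a1, Col8a2 and Col22a1 at 14 days, and 1 MI 14 days array of Col14a1 lies at -0.92, far below its group.

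Type IV chains differed in direction against sham at 3 days. In the heart the widespread network is α1 with α2. The α3, α4 and α5 chains form another network known from kidney glomerulus, and α5 also pairs with α6. At 14 days 3 of the 6 genes were higher than in sham and 3 did not pass (median 0.60), while over all genes 15.9% were higher. At 3 days 2 were higher, 3 lower and 1 did not pass (median -0.26). With 6 genes, this split lies near the 29.8% higher and 40.5% lower over all genes.

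Col4a1 read 4.90, 5.22, 5.67, 5.43 and 4.98 on the MI 14 days arrays, 5.62, 5.62, 5.56, 5.78 and 5.59 on the MI 3 days arrays and 4.45, 4.29, 4.46 and 4.83 on the sham arrays. Col4a2 read 4.66, 4.85, 5.21, 5.08 and 4.80 on the MI 14 days arrays, 5.20, 5.20, 4.92, 5.21 and 5.11 on the MI 3 days arrays and 4.32, 3.94, 4.10 and 4.70 on the sham arrays. Both chains were higher in each MI group, though for Col4a2 the MI 14 days arrays overlapped sham. Col4a1 was higher by 0.73 ± 0.15 at 14 days and 1.12 ± 0.15 at 3 days, and Col4a2 by 0.66 ± 0.15 at 14 days and 0.86 ± 0.15 at 3 days. With slide as a block the 14 days calls ended, at 0.62 for Col4a1 (adjusted p = 0.0601) and 0.52 for Col4a2 (adjusted p = 0.08). Col4a1 was lower at 14 days than at 3 days, at -0.39 ± 0.14 (adjusted p = 0.0299), a call that ended in 10 of 20 alternatives. They include the fits without MI 3 days replicate 4 or MI 14 days replicate 1, 2 or 5 (-0.39 to -0.31, adjusted p = 0.0508 to 0.0777). The RefSeq starts of the 2 genes lie 21 bases apart on chromosome 8, in opposite orientation, with each start inside the other gene. The windows before these 2 starts point away from each other, so the shared window bases given above cannot come from them.

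Col4a3 read -2.78, -2.74, -2.37, -2.61 and -3.48 on the MI 14 days arrays, -4.74, -5.94, -6.15, -5.83 and -4.60 on the MI 3 days arrays and -3.52, -3.32, -3.23 and -3.93 on the sham arrays. All MI 3 days arrays were below all sham arrays, and all MI 14 days arrays were above all MI 3 days arrays. The change was 0.70 ± 0.32 (adjusted p = 0.115) at 14 days, -1.95 ± 0.32 (adjusted p = 1.21e-04) at 3 days and 2.65 ± 0.31 (adjusted p = 8.25e-06) between the times. At 3 days 1 of 2 scanner arrays was well above background. Fitted on those 2 groups alone, MI 14 days passed against sham (adjusted p = 0.0421).

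Col4a4 read 0.56, 0.77, 0.83, 0.76 and 0.30 on the MI 14 days arrays, -0.38, -0.66, -0.78, -0.77 and -0.89 on the MI 3 days arrays and 0.34, 0.49, 0.79 and 0.44 on the sham arrays. It was 0.13 ± 0.13 (adjusted p = 0.506) at 14 days, -1.21 ± 0.13 (adjusted p = 2.71e-06) at 3 days and 1.34 ± 0.13 (adjusted p = 1.40e-06) between the times. Its dimmer tested probe was called higher than sham at 14 days, at 0.71 ± 0.20 (adjusted p = 0.0146), so the probes disagree there, and their mean was called higher (0.42, adjusted p = 0.036). Col4a5 was 0.54 ± 0.15 (adjusted p = 0.0129) at 14 days and 0.02 ± 0.15 (adjusted p = 0.915) at 3 days. Its call between the times (0.52 ± 0.14, adjusted p = 0.00589) ended on the scanner signal (adjusted p = 0.0967), with normexp (adjusted p = 0.254) and with slide as a block (adjusted p = 0.177). Col4a6 was -0.18 ± 0.13 (adjusted p = 0.324) at 14 days and -0.53 ± 0.13 (adjusted p = 0.00314) at 3 days, and its dimmer probe was 1.18 ± 0.22 (adjusted p = 0.00155) at 14 days and -0.51 ± 0.22 (adjusted p = 0.0598) at 3 days. With slide as a block the 3 days call of Col4a6 ended at -0.46 (adjusted p = 0.0697). Between the times Col4a6 was 0.35 ± 0.13 (adjusted p = 0.0303), a call that ended in 9 of 20 alternatives, among them the fits without MI 3 days replicate 3 or 4 or MI 14 days replicate 1 or 5 (0.26 to 0.32, adjusted p = 0.0684 to 0.0791).

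FACIT chains were divided in direction. At 14 days 3 of 6 tested genes were higher than in sham, 1 was lower and 2 did not pass (median 1.87), while over all genes 15.9% were higher and 24.2% lower. At 3 days 1 was higher, 3 were lower and 2 did not pass (median -0.28, or -0.22 with Col22a1 at its bound). These 4 of 6 calls lie near the 70.2% called over all genes at that time, where 29.8% were higher and 40.5% lower. Between the times 4 were higher at 14 days, none was lower and 2 did not pass, and over all genes 33.6% were higher.

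Col22a1 encodes a FACIT chain known from tissue junctions such as that of muscle and tendon. It read -1.20, -1.01, -0.48, -0.58 and -0.92 on the MI 14 days arrays, -5.43, -6.08, -6.38, -6.31 and -5.64 on the MI 3 days arrays and -3.43, -3.69, -6.19 and -3.32 on the sham arrays. All MI 14 days arrays lay above every other array, and sham replicate 3, at -6.19, lay among the MI 3 days arrays. Col22a1 entered the tests only through MI 14 days, where it was high, so its p-values are no independent support. At 14 days it was 9.98-fold higher than in sham (3.32 ± 0.47, adjusted p = 2.39e-04; 2.64 without sham replicate 3) and at least 15.2-fold higher than at 3 days (adjusted p = 6.52e-07). At 3 days, where no scanner array was well above background, sham was at least 1.53-fold higher (adjusted p = 0.00387). With normexp background correction this call ended at -0.39 (adjusted p = 0.0535), and no setting that left out 1 array ended it.

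Col16a1, a FACIT chain of fibroblasts, read 4.39, 4.46, 4.81, 4.48 and 3.96 on the MI 14 days arrays, 3.62, 3.88, 3.44, 3.99 and 4.16 on the MI 3 days arrays and 2.02, 1.87, 1.81 and 2.19 on the sham arrays. It was higher at 14 days by 2.45 ± 0.17 (adjusted p = 1.75e-06) and at 3 days by 1.84 ± 0.17 (adjusted p = 5.19e-07), and at 14 days against 3 days by 0.60 ± 0.16 (adjusted p = 0.00598). That last call ended on the scanner signal (0.33, adjusted p = 0.228), with normexp (0.33, adjusted p = 0.214) and with slide as a block (0.24, adjusted p = 0.479). Its other 2 tested probes were called higher in both comparisons with sham, and between the times gave 0.52 ± 0.17 (adjusted p = 0.0195) and 0.12 ± 0.19 (adjusted p = 0.6).

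Col9a2, a chain of the cartilage FACIT type IX, read -1.13, -0.38, 0.56, -0.25 and -0.66 on the MI 14 days arrays, -2.51, -1.68, -2.71, -1.76 and -1.51 on the MI 3 days arrays and -2.06, -2.22, -2.55 and -1.99 on the sham arrays. It was 1.83 ± 0.31 (adjusted p = 8.39e-04) at 14 days, 0.17 ± 0.31 (adjusted p = 0.645) at 3 days and 1.66 ± 0.30 (adjusted p = 3.26e-04) between the times, where the call ended with slide as a block (1.10, adjusted p = 0.0695). Its partner Col9a1 was lower, at -0.60 ± 0.18 (adjusted p = 0.0232) at 14 days and -0.91 ± 0.18 (adjusted p = 5.95e-04) at 3 days. The 14 days call of Col9a1 ended in 11 of 19 alternatives. They include the fits without sham replicate 2 or 3 or MI 14 days replicate 1, 2 or 3 (-0.55 to -0.46, adjusted p = 0.0502 to 0.079). The 3 days call of Col9a1 ended with normexp (-0.30, adjusted p = 0.137). Col9a3, the third chain, had no scanner array well above background.

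Col20a1 was lower at 3 days, at -0.74 ± 0.12 (adjusted p = 8.07e-05), and did not pass at 14 days (0.04 ± 0.12, adjusted p = 0.831). Its other tested probe was called higher at 14 days (0.56 ± 0.17, adjusted p = 0.0233) and lower at 3 days (-0.72 ± 0.17, adjusted p = 0.00213), and the mean of both was called higher at 14 days (0.30, adjusted p = 0.0462). Col14a1, a fibril-surface chain of dense connective tissue, read 3.75, 3.51, 3.97, -0.92 and 2.98 on the MI 14 days arrays, 2.28, 2.68, 1.91, 2.74 and 2.96 on the MI 3 days arrays and 0.64, 0.78, 0.59 and 0.98 on the sham arrays with its brightest probe. Replicate 4 of MI 14 days stood alone at -0.92, and the brightest probe did not pass in any comparison, with 1.91 ± 0.76 (adjusted p = 0.0693) at 14 days and 1.77 ± 0.76 (adjusted p = 0.0547) at 3 days. Its other tested probe read 0.81 on that array and gave 2.47 ± 0.19 (adjusted p = 3.37e-06) at 14 days and 1.39 ± 0.19 (adjusted p = 2.29e-05) at 3 days. At 3 days 4 of 19 alternatives called Col14a1 higher, among them the mean of its probes (1.58, adjusted p = 0.00385). Without replicate 4 of MI 14 days the brightest probe was called higher than in sham (2.81, adjusted p = 1.92e-05) and than at 3 days (1.04, adjusted p = 0.00203).

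**Figure D3:**
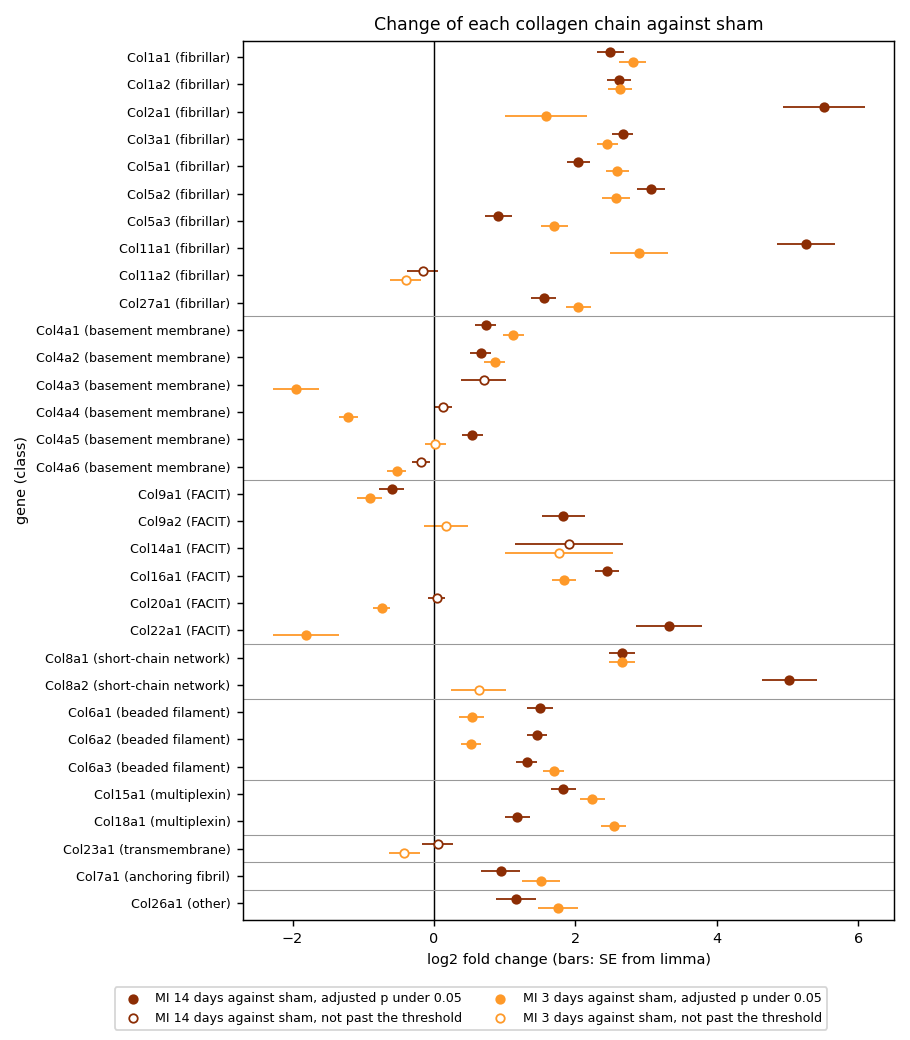
Log2 fold change against sham ± SE of the 32 tested collagen genes, by class, at MI 14 days (dark) and MI 3 days (orange), with filled points for adjusted p under 0.05. Most fibrillar points of the 2 times lie close together, while Col4a3, Col22a1 and Col8a2 lie far apart, and the fitted values of Col2a1, Col11a1 and Col22a1 rest on groups below background.

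Type VIII collagen, a short-chain network of vessel walls and of remodelling tissue, has 2 chains. Col8a1 read 2.53, 2.76, 3.29, 2.85 and 2.27 on the MI 14 days arrays, 2.52, 2.99, 2.44, 2.84 and 2.91 on the MI 3 days arrays and 0.27, -0.08, -0.05 and 0.19 on the sham arrays. It was 6.32-fold higher at 14 days (2.66 ± 0.18, adjusted p = 1.61e-06) and 6.3-fold higher at 3 days (2.66 ± 0.18, adjusted p = 3.90e-08). The MI 14 days and MI 3 days arrays averaged 2.74 ± 0.38 and 2.74 ± 0.25 (SD).

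Col8a2 read 1.60, 2.24, 2.67, 2.19 and 1.05 on the MI 14 days arrays, -2.66, -2.19, -3.49, -2.18 and -1.65 on the MI 3 days arrays and -2.98, -3.15, -3.78 and -2.36 on the sham arrays. All MI 14 days arrays lay above all others, while MI 3 days and sham overlapped. It was 32.4-fold higher than sham at 14 days (5.02 ± 0.39, adjusted p = 3.37e-06) and 20.9-fold higher than at 3 days (4.39 ± 0.37, adjusted p = 5.05e-07). At 3 days the change of 0.63 ± 0.39 (adjusted p = 0.169) did not pass, except without replicate 3 of MI 3 days (0.90, adjusted p = 0.0433). A dimmer Col8a2 probe was 0.83 ± 0.37 (adjusted p = 0.0982) at 14 days and -1.54 ± 0.37 (adjusted p = 0.00216) at 3 days, so the 2 probes gave opposite signs at 3 days. At 3 days that dimmer probe was well above background on 1 of 2 scanner arrays. Between the times that probe was also higher, by 2.37 ± 0.35 (adjusted p = 6.10e-05). The probe given first was chosen as the brightest on average over all arrays, so its MI 14 days signal helped choose it. In sham it averaged -3.07 and the other probe -2.98. The 32.4-fold rise thus rests on a probe that was not chosen independently of that rise. Col10a1, the short-chain collagen of growth-plate cartilage, had no scanner array well above background.

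The 3 tested type VI chains were higher in both MI groups. Col6a1 read 5.64, 5.65, 5.86, 5.66 and 5.40 on the MI 14 days arrays, 4.78, 4.78, 3.97, 4.87 and 4.93 on the MI 3 days arrays and 3.96, 3.96, 4.22 and 4.41 on the sham arrays. Col6a2 read 3.35, 3.15, 3.32, 3.19 and 3.12 on the MI 14 days arrays, 2.27, 2.33, 1.86, 2.49 and 2.51 on the MI 3 days arrays and 1.63, 1.47, 1.91 and 2.05 on the sham arrays. At 14 days both lay above all sham arrays, with changes of 1.50 ± 0.18 for Col6a1 and 1.46 ± 0.14 for Col6a2. At 3 days the changes were 0.53 ± 0.18 (adjusted p = 0.0186) for Col6a1 and 0.52 ± 0.14 (adjusted p = 0.0054) for Col6a2, and replicate 3 of MI 3 days lay within the sham range for both. The Col6a1 call at 3 days ended without sham replicate 1 (adjusted p = 0.0545) or sham replicate 2 (adjusted p = 0.0557).

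Col6a3, the long α3 chain of type VI, read 3.98, 3.65, 4.05, 3.74 and 3.52 on the MI 14 days arrays, 4.29, 4.20, 3.62, 4.39 and 4.32 on the MI 3 days arrays and 2.58, 2.31, 2.50 and 2.51 on the sham arrays. It was higher by 1.31 ± 0.15 at 14 days and by 1.69 ± 0.15 at 3 days, with no overlap with sham. Between the times Col6a1 (0.97 ± 0.17) and Col6a2 (0.93 ± 0.14) were higher at 14 days and Col6a3 was lower (-0.38 ± 0.14, adjusted p = 0.0392). The Col6a3 call ended in 12 of 20 alternatives. They include 7 fits without 1 array, replicate 1, 2, 4 or 5 of MI 3 days or replicate 2, 4 or 5 of MI 14 days (-0.37 to -0.31, adjusted p = 0.0684 to 0.0977). The alternative α3-like chains Col6a4, Col6a5 and Col6a6 could not be tested. Col6a5 was well above background on 3 of 4 MI 14 days scanner arrays and on no other.

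Both multiplexins were higher in both MI groups. Col18a1, the source of the fragment endostatin, read 2.11, 2.17, 2.75, 2.37 and 1.64 on the MI 14 days arrays, 3.27, 3.69, 3.59, 3.77 and 3.57 on the MI 3 days arrays and 1.02, 0.88, 0.98 and 1.24 on the sham arrays. The 3 groups did not overlap. It was 1.18 ± 0.18 (adjusted p = 3.79e-04) at 14 days, 2.54 ± 0.18 (adjusted p = 4.62e-08) at 3 days and -1.37 ± 0.17 (adjusted p = 1.48e-05) between the times. The other tested Col18a1 probe was 1.27 ± 0.20 at 14 days and 2.62 ± 0.20 at 3 days, and 14 days against 3 days gave -1.35 ± 0.19.

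Col15a1, a basement membrane chain of muscle and capillaries, read 0.00, 0.21, 0.35, 0.38 and 0.12 on the MI 14 days arrays, 0.45, 1.04, 0.24, 0.80 and 0.61 on the MI 3 days arrays and -2.11, -1.57, -1.33 and -1.44 on the sham arrays. It was higher by 1.83 ± 0.18 (adjusted p = 1.40e-05) at 14 days and 2.24 ± 0.18 (adjusted p = 1.16e-07) at 3 days. It was -0.41 ± 0.17 (adjusted p = 0.0471) at 14 days against 3 days, a call that ended in 11 of 20 alternatives. They include the fits without replicate 2, 4 or 5 of MI 3 days or replicate 1, 2 or 5 of MI 14 days (-0.42 to -0.31, adjusted p = 0.07 to 0.12).

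Col7a1, the anchoring fibril of skin, read -1.23, -0.74, 0.11, -0.60 and -0.90 on the MI 14 days arrays, -0.88, 0.13, -0.15, -0.08 and 0.49 on the MI 3 days arrays and -1.50, -1.78, -1.80 and -1.36 on the sham arrays. It rose by 0.94 ± 0.27 (adjusted p = 0.0171) at 14 days and 1.51 ± 0.27 (adjusted p = 2.35e-04) at 3 days, and the 14 days call ended with slide as a block (0.68, adjusted p = 0.0971). Between the times it did not pass (-0.57 ± 0.26, adjusted p = 0.0736), but 4 of 20 alternatives called it lower at 14 days, among them the fits without MI 3 days replicate 1 or MI 14 days replicate 3 (both -0.76). The epidermal keratins Krt5 and Krt14 did not pass in either comparison with sham. Krt10 was -0.57 ± 0.11 at 14 days and -1.10 ± 0.11 at 3 days.

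Col26a1 read -2.12, -1.77, -2.13, -2.89 and -2.53 on the MI 14 days arrays, -2.26, -1.12, -2.32, -1.41 and -1.38 on the MI 3 days arrays and -3.28, -3.18, -3.87 and -3.47 on the sham arrays. It was 1.16 ± 0.28 (adjusted p = 0.00612) at 14 days and 1.75 ± 0.28 (adjusted p = 7.92e-05) at 3 days, and with normexp the 14 days call ended at 0.32 (adjusted p = 0.0687). Between the times it did not pass (-0.59 ± 0.26, adjusted p = 0.0698), but 7 of 20 alternatives called it lower at 14 days, among them slide as a block (-1.21, adjusted p = 0.00931) and the fits without MI 3 days replicate 1 or 3 or MI 14 days replicate 2. Of the transmembrane collagens, Col23a1 was tested and did not pass with its brightest probe (0.05 ± 0.22 at 14 days and -0.42 ± 0.22 at 3 days). Without sham replicate 1 it was called lower at 3 days (-0.65, adjusted p = 0.0102), and its dimmer probe was -0.68 ± 0.26 (adjusted p = 0.0327) at 3 days. The 11 genes too dim to test were Col6a4, Col6a5, Col6a6, Col9a3, Col10a1, Col13a1, Col17a1, Col19a1, Col24a1, Col25a1 and Col28a1. Of 9 genes with 2 or more tested probes, the probes differed in call in 5 at 14 days and 4 at 3 days, and in 4 for 14 days against 3 days, and in none were they called in opposite directions.

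Partner chains were compared within each array as the difference of their log2 levels, which asks whether 1 chain changed more than the other. Of 12 listed pairs 11 could be tested, by an exact two-sided permutation test adjusted over the 11 pairs, and the smallest p these groups allow is 0.00794. Col1a1 and Col3a1 are chains of different collagen types and were paired because types I and III share fibrils. At 14 days 5 of 11 pairs differed in change, at 3 days 7, and between the times 7. These include the type XI pair each time, whose Col11a1 levels in sham were below background, and without it 4 pairs passed at 14 days and 6 at 3 days. Without any 1 MI 14 days array the smallest p against sham is 0.0286, and 0 pairs then passed at 14 days.

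With the brightest probes, the Col8a1 and Col8a2 pair differed in opposite directions at the 2 times. Col8a1 changed by 2.36 less than Col8a2 at 14 days (difference -2.36, 95% interval -2.97 to -1.74, exact adjusted p = 0.0218). At 3 days it changed by 2.02 more (1.29 to 2.85, exact adjusted p = 0.0125). With the mean of each gene's tested probes, the difference at 14 days was -0.27 and did not pass (exact adjusted p = 0.297), so that imbalance rests on the brightest Col8a2 probe. By probe means Col8a1 changed by 3.11 more at 3 days (exact adjusted p = 0.0146), and the difference between the times was -3.38 (exact adjusted p = 0.0249). Both values include the dimmer Col8a2 probe, which was well above background on 1 of 2 MI 3 days scanner arrays.

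No difference in change between Col6a1 and Col6a2 passed. It was 0.04 at 14 days (-0.15 to 0.21), 0.00 at 3 days (-0.21 to 0.17) and 0.04 between the times (-0.16 to 0.25), with exact adjusted p from 0.548 to 0.96. The change of Col6a1 less that of Col6a3 was 0.19 at 14 days, which did not pass (-0.07 to 0.49), and -1.16 at 3 days (-1.40 to -0.90, exact adjusted p = 0.0125).

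In type I, the change of Col1a1 less that of Col1a2 was -0.14 at 14 days (-0.47 to 0.23) and 0.18 at 3 days (0.02 to 0.35), with exact adjusted p of 0.402 at 14 days and 0.0546 at 3 days. For Col1a1 less Col3a1 it was -0.18 at 14 days (-0.54 to 0.20), which did not pass, and 0.36 at 3 days (0.12 to 0.61, exact adjusted p = 0.0125). Between the times it was -0.54 (-0.80 to -0.23, exact adjusted p = 0.0291).

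In type V, Col5a1 changed less than Col5a2 at 14 days by 1.03 (difference -1.03, -1.35 to -0.72, exact adjusted p = 0.0218), and at 3 days the difference was 0.02 (-0.31 to 0.31). The change of Col5a1 exceeded that of Col5a3 by 1.13 at 14 days (exact adjusted p = 0.0218) and by 0.88 at 3 days (exact adjusted p = 0.0125). Between the times Col5a1 less Col5a2 was -1.04 (exact adjusted p = 0.0291), and Col5a1 less Col5a3 was 0.25, which did not pass (-0.11 to 0.62, exact adjusted p = 0.155). In type XI no size is given against sham, where Col11a1 was below background. Between the times the change of Col11a1 exceeded that of Col11a2 by 2.11 (0.75 to 3.33, exact adjusted p = 0.0291).

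In type IV, the change of Col4a1 less that of Col4a2 was 0.07 at 14 days (-0.15 to 0.28), which did not pass, and 0.26 at 3 days (exact adjusted p = 0.0125). For Col4a3 less Col4a4 it was 0.58 at 14 days (exact adjusted p = 0.0349) and -0.74 at 3 days (-1.53 to 0.15), which did not pass. For Col4a5 less Col4a6 it was 0.72 at 14 days (0.12 to 1.26, exact adjusted p = 0.0582), which did not pass, and 0.55 at 3 days (0.13 to 0.94, exact adjusted p = 0.0125). These differences use the brightest probes. At 14 days the dimmer Col4a4 probe rose by 0.71, close to the 0.70 of Col4a3, so that imbalance rests on the brightest Col4a4 probe. The dimmer Col4a6 probe rose by 1.18 at 14 days, more than the 0.54 of Col4a5, which is the opposite order.

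**Figure D4:**
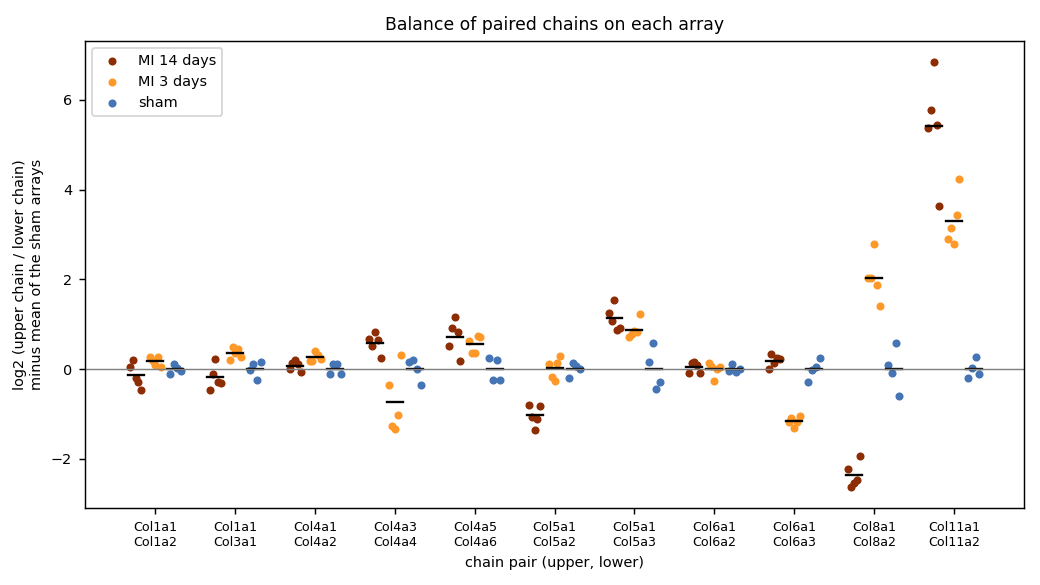
Log2 ratio of 2 chains (upper over lower name) on each array, minus the mean of the sham arrays, for 11 pairs, with MI 14 days, MI 3 days and sham from left to right in each pair and black bars at group means. Col6a1 over Col6a2 lies near 0 in all groups, and Col8a1 over Col8a2 lies below 0 on all MI 14 days arrays and above 0 on all MI 3 days arrays.

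Arrays of 1 group differed in collagen level as a whole. At MI 14 days, replicate 3 was the highest of its group for 20 of the 32 genes and replicate 5 the lowest for 18. At MI 3 days, replicate 5 was the highest for 15 and replicate 3 the lowest for 21. In sham, replicate 4 was the highest for 20. All 10 scanner arrays shared 1 scan date and lay on 3 slides. Within slides the median differences of the 32 tested genes, called or not, were 1.61 and 1.20 on the 2 slides that held MI 14 days and sham. For MI 3 days against sham they were 1.54 and 1.34, each from 1 array a group. The calls were made on the same arrays and most groups did not overlap, so the direction within a slide is no separate test.

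Genes that fold, process and cross-link collagen were mostly higher in both MI groups. Of 29 tested, 22 were higher and 1 lower at 14 days (median 0.66), and 21 were higher and 2 lower at 3 days (median 1.08). Lox, the oxidase that starts cross-linking, was 3.39 ± 0.26 (adjusted p = 3.37e-06) at 14 days and 4.75 ± 0.26 (adjusted p = 6.66e-09) at 3 days. Loxl3, of the same family, was 2.95 ± 0.22 at 14 days, and Loxl4 was 3.58 ± 0.22 at 3 days. The lower genes were P3h4, of the complex that hydroxylates collagen lysines, at 14 days (-0.22 ± 0.07), and Colgalt2, a collagen galactosyltransferase (-1.28 ± 0.16), and Tll1, a procollagen-trimming protease (-0.49 ± 0.11) at 3 days. Over all genes 15.9% were higher at 14 days and 29.8% at 3 days. From 3 to 14 days 6 were higher and 11 lower (33.6% and 26.9% of all genes), Lox among the lower (-1.36 ± 0.25).

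Collagen receptors and uptake receptors were higher in 6 of 7 at 14 days (15.9% of all genes) and 5 of 7 at 3 days (29.8% of all genes). Itga11, an integrin chain of fibroblasts that binds collagen, was 2.23 ± 0.32 (adjusted p = 2.87e-04) at 14 days, and Mrc2, an uptake receptor, was 1.34 ± 0.16 (adjusted p = 7.17e-05) at that time. At 3 days the largest rises were of Lair1 (1.66 ± 0.17), a collagen receptor of leukocytes, and Mrc2 (1.51 ± 0.16).

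Of 6 collagen-cleaving enzymes, 3 were higher at 14 days (15.9% of all genes), and 5 were higher and 1 lower at 3 days, when 70.2% of all genes were called. At 3 days Mmp8, neutrophil collagenase, was at least 14.1-fold higher and Mmp9 at least 7.81-fold higher. At 14 days both were below background, as in sham, so both entered the tests only through MI 3 days. Mmp2, gelatinase A, was 2.02 ± 0.17 (adjusted p = 6.29e-06) at 14 days and -0.65 ± 0.17 (adjusted p = 0.00454) at 3 days. Ctsk, the protease cathepsin K, was 2.25 ± 0.17 at 14 days.

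Of 9 proteins that decorate or join fibrils, all 9 were higher at 14 days (15.9% of all genes), and at 3 days 5 were higher and 3 lower (29.8% and 40.5% of all genes). Comp, which binds fibrils of types I, II and IX, was 6.00 ± 0.27 (adjusted p = 8.09e-08) at 14 days and -0.88 ± 0.27 (adjusted p = 0.0115) at 3 days. Fmod (fibromodulin) was 3.72 ± 0.29 at 14 days and -0.82 ± 0.29 at 3 days. Fn1 (fibronectin) was 2.93 ± 0.25 at 14 days and 3.68 ± 0.25 at 3 days, and Postn (periostin) was 3.45 ± 0.20 at 14 days and 3.36 ± 0.20 at 3 days. Dcn, Lum, Ddr2 and Postn of these lists are also among the fibroblast or myofibroblast markers above.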

How the data were processed

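Ventricular RNA of 14 mouse samples was hybridised to 1-colour Agilent arrays (200 ng, Cy3). Both poly-T purification and labelling of total RNA are named in the labels' protocols, so which RNA was labelled is open. The authors deposited a table of linear Cy3 intensity per probe, unscaled between arrays. Of 10 arrays they deposited scanner intensity, background-subtracted in Agilent Feature Extraction 10.7.3.1 per the file headers. There the 55050 single-spot probes equalled the table (relative tolerance 1e-05). The submitters' processing notes name limma with no role.

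Here log2 intensity minus each array's 75th percentile was used. These scanner files hold no gene names, so probes were named by accession through RefSeq (GRCm38.p6), of 55482 probes 27144. Among 44 collagen symbols there, Col12a1 had no matched probe and was not analysed here. A probe entered the tests if, in 1 or more groups, all scanner arrays flagged it well above background. The probe brightest on average over all arrays stood for a gene, so signal in the MI groups helped choose it. A group with no scanner array above background gives a lower bound ("at least"): the brighter group's mean over, per array, the higher of the probe's signal and the dimmest signal well above background. For MI 3 days this floor rests on 2 of 5 arrays. The planned normexp alternative used the median spot signal (offset 50), as the files read here hold no mean signal.

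limma 3.58.1 (R 4.3.3; lmFit, eBayes, two-sided) fitted the 3 groups, with the threshold at adjusted p 0.05, and was tested on simulated data. Intervals of pair differences (95%) come from inverting the exact test. Full values were given for the 2 largest called changes per class and comparison and for Col1a1, Col1a2, Col3a1, Col4a1, Col4a2, Col8a1 and Col8a2. Of the pathway lists, the 2 largest changes in each direction were named. Members, lists and tests were chosen with earlier results of these data known. Alternatives covered filters, scaling, scanner signal, normexp, slide and replicate blocks, samples fitted, probe choice and leaving out each array. The number of arrays limits precision. The share of cells behind a level was not measured.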

Additional observations from a re-analysis of the deposited data

Results flagged for a closer look

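In 7 of 96 tests of a collagen gene within a group, the end sample stood far from the others of its group; chance alone flags about 1 in 20 such tests. At MI 14 days, Col14a1 in replicate 4 (-0.92, others 2.98 to 3.97) and Col4a5 in replicate 5 (1.32, others 1.70 to 1.81) were low. At MI 3 days, replicate 3 was low for Col6a1 (3.97, others 4.78 to 4.93) and Col6a3 (3.62, others 4.20 to 4.39). In sham, Col22a1 was low in replicate 3 (-6.19, others -3.69 to -3.32). Sham replicate 4 was high for Col5a1 (1.60, others 1.35 to 1.37) and Col20a1 (-2.04, others -2.23 to -2.20).

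Col22a1 was called higher than sham at 14 days and lower at 3 days, and the fitted changes differed by 5.13 (limma, MI 14 days against MI 3 days, adjusted p = 6.52e-07). Since no MI 3 days scanner array was above background, that fitted value is not a measured size, and the measured bound is at least 15.2-fold higher at MI 14 days than at MI 3 days. The gene entered the tests only through its MI 14 days signal.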

How the results depend on the processing

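Over 1838 alternative values of the 96 gene changes, 1672 kept direction and call, 94 lost the call, 33 gained one and 39 changed sign. The causes were not tested. Of the values that changed sign, the reported one was called only for Col2a1 at 3 days, which read -0.02 with normexp, with both groups below background. Against sham at 3 days, Col8a2 read -0.45 with the mean of its probes. At 14 days, Col4a6 read 0.50 with the mean of its probes, Col20a1 -0.02 with slide as a block and -0.01 with the replicate block, and Col23a1 -0.02 with slide as a block. Between the times, Col1a2 read 0.03 when centred on tested probes. On the scanner signal, with normexp and with slide as a block, Col3a1 read -0.05, -0.07 and -0.01, Col8a1 -0.14, -0.11 and -0.20, and Col14a1 -0.41, -0.47 and -0.55. Leaving out 1 array gave ranges of -0.13 to 0.07 (Col1a2), -0.13 to 0.12 (Col8a1) and -0.18 to 1.04 (Col14a1) between the times, -0.28 to 0.07 (Col11a2), 0.00 to 0.09 (Col20a1) and -0.18 to 0.18 (Col23a1) at 14 days, and -0.04 to 0.13 (Col4a5) at 3 days. With slide as a block (10 arrays), calls over all genes were 2928 at 14 days and 4707 between the times, against 5960 and 8997, and collagen calls between the times were 13 (8 higher, 5 lower), against 21. With normexp, 5613 genes were called between the times. With 1 array left out, collagen calls were 24 to 26 at 14 days and 25 to 26 at 3 days, with 15 to 23 between the times, and calls over all genes 5006 to 6065, 9923 to 10217 and 8387 to 9184. Pairs passing at 14 days were 3 under the strict filter, 3 with probe means and 0 to 5 with 1 array left out, where 4 arrays against 4 allow no p below 0.0286. At 3 days it was 5 to 8 and between the times 6 to 8. Whether the replicate numbers pair the samples is open (correlations of same-numbered deviations -0.135 to 0.225, and 6 of 14 arrays correlated best with their own number). With them as a replicate block, collagen calls were 25 at 14 days and 26 at 3 days, and 19 between the times, and all-gene calls 5842, 10319 and 8874. Signal below background limits Col2a1 (sham and MI 3 days), Col11a1 (sham) and Col22a1 (MI 3 days).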

Other observations

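Among the 11 collagen genes too dim to test, some had arrays above background, with no test made. Col6a5, an α3-like chain of type VI, read -3.28, -3.95, -2.28, -3.21 and -6.02 on the MI 14 days arrays, -6.51, -6.43, -6.05, -6.40 and -7.30 on the MI 3 days arrays and -6.53, -6.18, -6.12 and -6.52 on the sham arrays. Replicates 1 to 4 of MI 14 days lay above all others, and its other probe did not show this, with -2.17 on replicate 5 and -6.46 to -5.29 on the other MI 14 days arrays. Col24a1, a fibrillar chain, read -5.35 to -4.02 at MI 14 days, -4.92 to -3.42 at MI 3 days and -6.55 to -5.14 in sham, and was above background on 1 scanner array, at MI 3 days. Col6a6 was above background on 3 of 4 sham scanner arrays and on none of the MI scanner arrays. Its mean level was -4.14 at MI 14 days, -5.1 at MI 3 days and -4.03 in sham, and the MI 14 days and sham arrays overlapped. Col25a1, a transmembrane collagen known from neurons, was above background on 2 of 4 scanner arrays at MI 14 days, 1 of 2 at MI 3 days and 3 of 4 in sham. Col13a1, Col17a1, Col19a1 and Col28a1 were above background on no scanner array.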
